A study of Mus musculus with 2 samples.

Results

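The genes described here are 10 receptor genes of the killer cell lectin-like receptor (Klr) families in cells of the mouse colon lamina propria: Klra1, Klra3, Klra4, Klra7, Klra8, Klra9, Klrb1c, Klrc1, Klrd1 and Klrk1. They were found by symbol, 1 row each, among the 32285 genes of both count matrices. Gene expression was measured in single cells from 2 libraries, 1 titled Runx3_fl and 1 titled Runx3, which gives 1 library a group. The study compared Runx3 fl/fl mice carrying Lyz2-Cre, which deletes Runx3 in myeloid cells, with Runx3 fl/fl littermates that carry the floxed allele without Cre. The titles do not say which library carried Cre, so both are named by title and no genotype is assigned. According to the study each library was pooled from male mice of the same age, and the labels give the cells as cd11b+ cells of the gut lamina propria.

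Natural killer (NK) cells carry germline-encoded receptors that read MHC class I and stress-induced proteins on other cells. Klra genes encode the Ly49 receptors, of which a single NK cell shows a varied subset. Klra1 (Ly49A), Klra3 (Ly49C), Klra7 (Ly49G) and Klra9 (Ly49I) are inhibitory and bind classical MHC class I, while Klra4 (Ly49D) and Klra8 (Ly49H) are activating and signal through the adaptor Tyrobp. Klrc1 encodes NKG2A, an inhibitory receptor that pairs with CD94, the product of Klrd1, and binds the MHC class Ib protein encoded by H2-T23. Klrk1 encodes the activating receptor NKG2D, which signals through Hcst and binds stress-induced ligands, and Klrb1c encodes the NK1.1 antigen, a classical NK cell marker of some mouse strains.

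All 10 genes lie in 1 region of mouse chromosome 6, the NK gene complex, at chr6:128778485-130386874 of GRCm38 (GENCODE M21), which spans 1.61 Mb and holds 25 genes with a Klr symbol. Klrb1c (ENSMUSG00000030325) lies at chr6:128778485-128789215. Klrd1 (ENSMUSG00000030165) at chr6:129591782-129598775, Klrk1 (ENSMUSG00000030149) at chr6:129610323-129623864 and Klrc1 (ENSMUSG00000030167) at chr6:129666015-129678973 are neighbours. The 6 Ly49 genes share a stretch of 343 kb, in the order Klra4, Klra8, Klra9, Klra7, Klra3 and Klra1 from its lower coordinate, and Klra4 (ENSMUSG00000079852) lies at chr6:130043731-130067271. Klrd1 is on the plus strand and the other 9 are on the minus strand. Klrb1c shares exon sequence on the same strand with the annotated gene Gm44511, so its counts are uncertain.

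RUNX proteins bind the letters TGTGGT or TGCGGT, and these were searched on both strands of the RefSeq promoter windows (GRCm38.p6, 300 bases, 250 before the start and 50 after it). Windows were given for 9 of the 10 genes, 11 windows in all. Of these 11 windows 4 held the letters, from 4 genes, while 22.4% of all 32851 promoter windows did. Each match is given within 30 bases, 5′ to 3′ on the gene's strand with the match in capitals, because the libraries are named for Runx3; a match is a description and not a bound site.
Klrb1c, chr6:128788713-128788742: aggaaggaaagcTGTGGTcatggtgttttg
Klrk1, chr6:129623976-129624005: tgatagctgtgcTGTGGTtgtgtgggggtt
Klrc1, chr6:129679043-129679072: gttgttgttgttACCACAgcactcgtattc
Klra1, chr6:130387058-130387087: aatagagctgttTGTGGTtttcctaagatc
In Klrc1 the letters were on the opposite strand, and the windows of Klra3, Klra4, Klra7, Klra8 and Klra9 held no match.

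The library titled Runx3_fl held 12968 cells with 146204416 UMIs and the library titled Runx3 held 8953 cells with 75478164 UMIs, where a UMI marks 1 captured RNA molecule. Cells with 200 to 6000 genes and at most 15% mitochondrial UMIs were kept, which left 11885 and 8167 cells, and 37 barcodes occurred in both libraries. With 1 library a group there was no test and no p-value, and the 95% intervals given below cover counting error only. Those of UMI counts take each UMI as independent, although UMIs of a gene gather in cells, so they leave out the spread between cells. NK cells, defined by a UMI of Ncr1 and none of Cd3e, numbered 1396 (11.7% of kept cells, median 8015 UMIs) in Runx3_fl and 127 (1.56%, median 10214 UMIs) in Runx3. CD8 T cells (Cd8a, Cd8b1 and Cd3e) numbered 1213 and 76, and CD4 T cells (Cd4 and Cd3e) 1543 and 208. Among cells labelled as cd11b+, for the product of Itgam, these 3 classes were frequent in Runx3_fl (CD8 T cells 10.2% and CD4 T cells 13.0% of kept cells) and scarce in Runx3 (0.931% and 2.55%). In NK cells Itgam was at 141 and 148 CPM (UMIs of a gene divided by all UMIs of the class, times 1000000).

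The labelled cells were checked against their markers. All 10 NK markers had UMIs in the NK cells of both libraries, of which Ncr1 defines the class and is no check. Among the others were Eomes at 257 CPM in Runx3_fl and 225 in Runx3, and Prf1 at 528 and 480. Gzma was at 5479 and 3414 CPM, Ccl5 at 7012 and 3873, and Xcl1 at 563 and 665. The 10 markers, Ncr1 included, summed to 16297 and 11144 CPM, with 5 lower and 5 higher in Runx3. Markers of group 1 and group 3 innate lymphoid cells were scarce, with 58.6 and 32.1 summed CPM for the 6 of the first list and 12.4 and 38.8 for the 6 of the second. Other lineages were unequal in the NK cells of the 2 libraries. The 4 neutrophil markers summed to 45.8 CPM in Runx3_fl and 3936 in Runx3, the 4 B cell markers to 10.0 and 47.5, the 6 myeloid markers to 344 and 377, the 3 plasma cell markers to 372 and 154, and the 8 T cell markers, with Cd3e at 0 by definition, to 670 and 608. The near-equal myeloid sums hide opposite differences. Of the 6 markers 4 were higher in Runx3, among them C1qa (15.7 and 79.6 CPM), Fcgr1 (5.25 and 28.1) and Csf1r (13.7 and 52.2). The other 2, Lyz2 (181 and 109) and Itgax (116 and 89.6), were lower. In Runx3 a single NK cell held 3048 UMIs of S100a8 and 2526 of S100a9, and without it the neutrophil markers summed to 209 CPM. A Csf1r UMI was seen in 60 of 1396 NK cells (4.30%) in Runx3_fl and in 27 of 127 (21.3%) in Runx3. The libraries also went apart in sex genes, against the study's account of male pools: in Runx3_fl 327 NK cells held Xist and no Y-linked UMI and 891 the reverse, while in Runx3 117 NK cells held a Y-linked UMI and Xist was at 0.

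In both libraries the Ly49 genes and Klrb1c were far higher in NK cells than in any other class described. Klrd1 and Klrk1 were also found in other classes of both libraries, such as Klrd1 in CD8 T cells (144 and 102 CPM) and Klrk1 in Csf1r cells without Ncr1 or Cd3e (97.0 and 60.1 CPM). Klrc1 was also high in CD8 T cells of Runx3_fl (249 CPM), but in Runx3 it was at 57.5 CPM in CD8 T cells and 6.82 in CD4 T cells. Levels are CPM with exact Poisson intervals. These 3′ counts record 1 end of each RNA and do not scale with gene length, so an order of genes by CPM is an order of captured molecules.

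**Figure D1:**
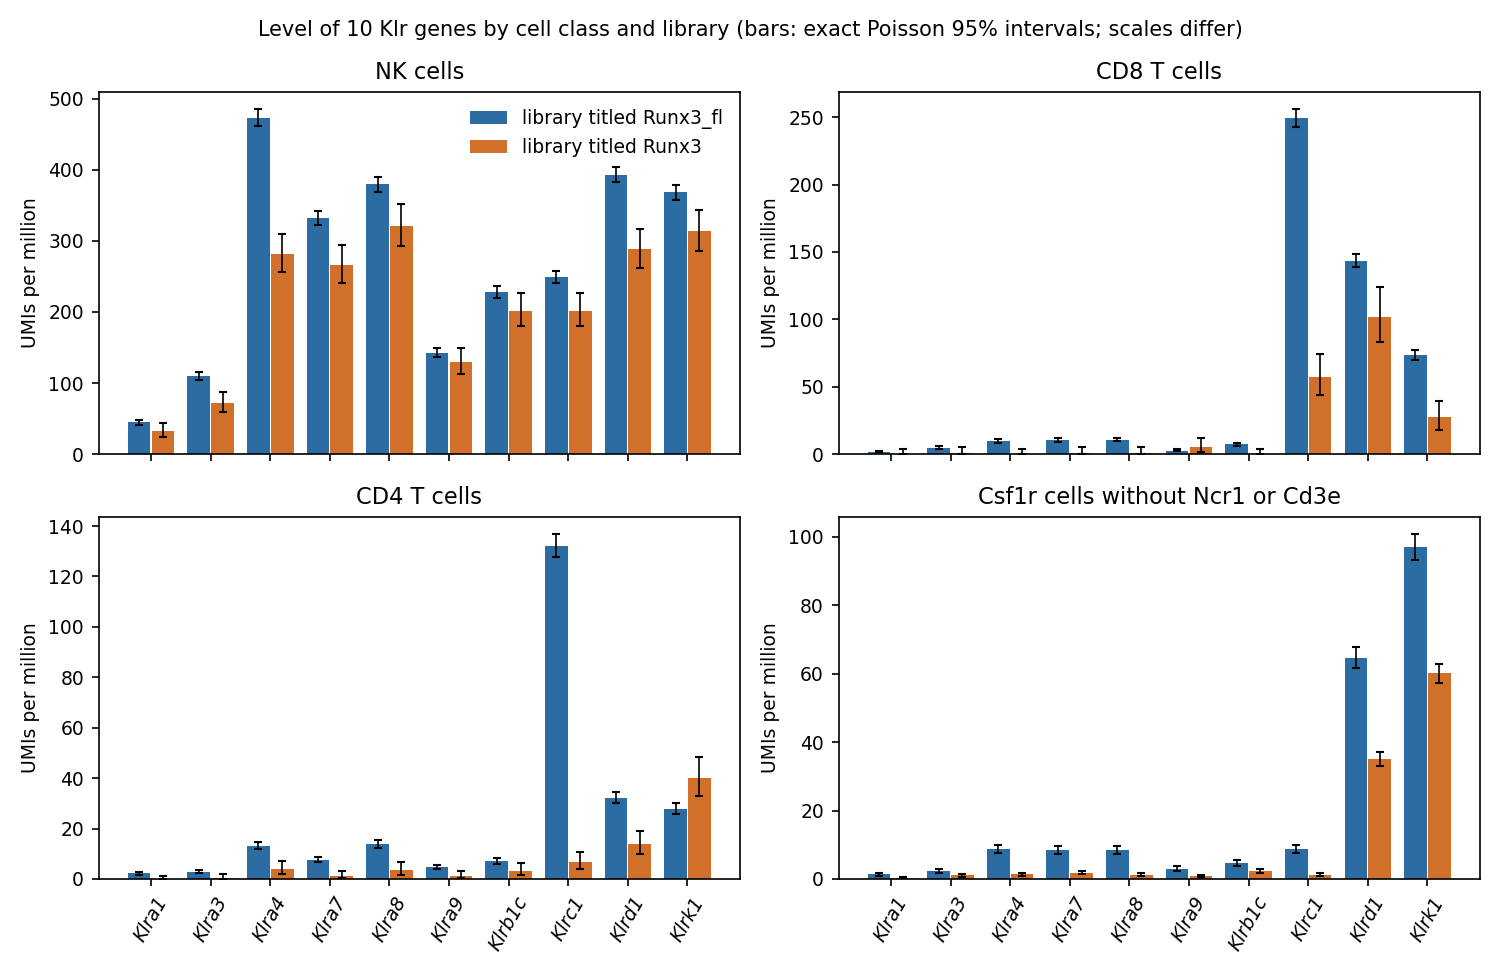
CPM of the 10 genes in NK, CD8 T, CD4 T and Csf1r cells without Ncr1 or Cd3e, with a bar for each library and exact Poisson 95% intervals; the vertical scale differs between panels. In NK cells all 10 bars are lower in the library titled Runx3, and Klrd1 and Klrk1 are the only tall bars in Csf1r cells.

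Among the inhibitory Ly49 genes in NK cells, Klra7 was highest, at 332 CPM (322 to 342) in Runx3_fl and 267 (241 to 294) in Runx3. Klra9 was at 143 CPM (136 to 149) and 130 (112 to 149), Klra3 at 109 (104 to 115) and 72.2 (59.2 to 87.2), and Klra1 at 44.6 (41.1 to 48.4) and 32.8 (24.2 to 43.3). The 2 activating genes were as high or higher: Klra4 was at 473 CPM (462 to 485) in Runx3_fl and 282 (256 to 310) in Runx3, and Klra8 at 380 (369 to 390) and 322 (294 to 352). In Runx3_fl Klra4 stood above Klra8, whereas in Runx3 the order was turned and the intervals of Klra4, Klra7 and Klra8 overlapped in part.

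Klrd1 was at 393 CPM (383 to 404) in NK cells of Runx3_fl and 289 (262 to 317) in those of Runx3. Klrk1 was at 368 (358 to 379) and 314 (286 to 343), Klrc1 at 249 (240 to 257) and 202 (180 to 226), and Klrb1c at 228 (219 to 236) and 202 (180 to 226). The NK cells with Klra4 or Klra8 held many of its RNAs, with a median of 8 UMIs per positive cell for Klra4 and 6 for Klra8 in Runx3_fl, while Klrb1c had a median of 2 in a larger number of cells, 1097 of 1396.

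The first comparison was of NK cells between the libraries. On the scale of log2(CPM + 1), all 10 genes were lower in Runx3 than in Runx3_fl, by a median of 0.31 (log2 ratio −0.31), while the median over all 12891 genes with at least 10 UMIs in the class was 0.07 and 44.0% of those genes lay below 0. None of the 10 was lower or higher by over 1 log2 unit, where 4.18% of all tested genes were lower and 7.53% higher by that much. The largest difference was in Klra4, with a ratio of −0.74 (interval −0.89 to −0.60), followed by Klra3 at −0.59 (−0.90 to −0.32), Klrd1 at −0.44 (−0.59 to −0.30) and Klra1 at −0.43 (−0.90 to −0.02). The ratios of Klra7 (−0.32), Klrc1 (−0.30), Klra8 (−0.24) and Klrk1 (−0.23) were smaller, with intervals below 0. The interval of Klrb1c reached to just below 0 (−0.17), and Klra9 at −0.14 (−0.36 to 0.08) was not distinguishable from equal levels. These intervals do not hold the spread between cells, and Klra1 in Runx3 rested on 49 UMIs in 13 cells.

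**Figure D2:**
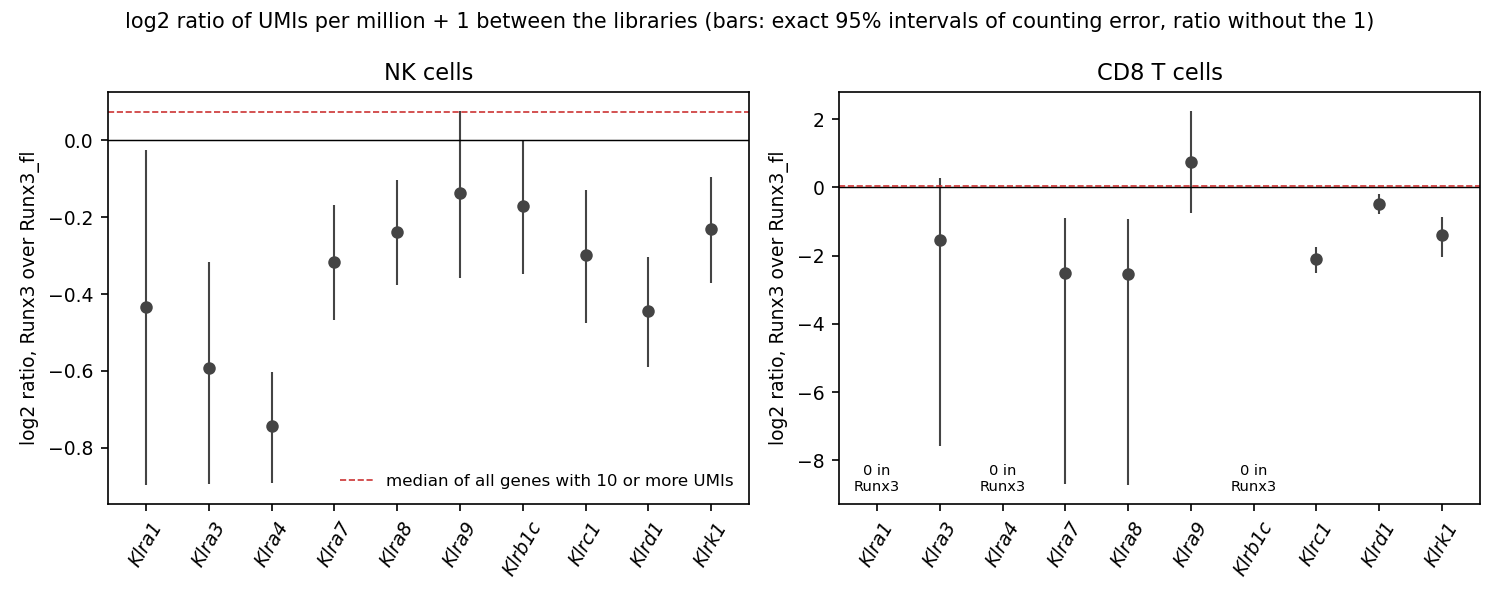
log2 ratio of each gene's level in the library titled Runx3 over that titled Runx3_fl, in NK cells and CD8 T cells, with exact 95% intervals of counting error; the dashed line is the median of all tested genes, and genes with 0 UMIs in a library are marked and not plotted. In NK cells the points run from −0.74 for Klra4 to −0.14 for Klra9, and in CD8 T cells Klrc1 and Klrk1 lie below Klrd1.

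The size of these differences depended on which NK cells were counted. In NK cells without a Csf1r UMI, 1336 and 100 cells, Klra4 (−0.54), Klra3 (−0.48), Klrd1 (−0.38) and Klrk1 (−0.20) kept intervals below 0, and Klra8 and Klra9 were at 0.01 and 0.08. Of the 10 genes 4 had intervals below 0 in these cells, where 8.64% of all tested genes did, against 9 of 10 and 9.97% in all NK cells (none of the 10 had an interval above 0, where 15.1% and 18.6% of all tested genes did), and the median of the 10 was −0.18. Without the NK cell that held most neutrophil RNA in each library all 10 genes were still lower, with a median of −0.28. The part of neutrophil and B cell RNA in the ratios was not tested. In NK cells with a Y-linked UMI and no Xist in both libraries the median ratio was −0.33. Within Runx3_fl, NK cells with Xist and no Y-linked UMI and those with the reverse had Klra4 at 465 and 492 CPM, Klra7 at 375 and 334, and Klrc1 at 218 and 278.

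Other genes of the same families were described from a fixed list. Of 17 other Klr genes 16 were in the matrices, and 13 of them had a lower level in Runx3 NK cells (median ratio −0.44), where 44.0% of all tested genes did. Of these 13, 1 was lower by over 1 log2 unit (Klrb1, on 32 and 1 UMIs), where 4.18% of all tested genes were. Intervals below 0 were found for 4 of the 16, where 9.97% of all tested genes had one. These were Klrb1b (395 and 239 CPM, −0.72), Klrc2, which encodes the activating partner of CD94 NKG2C (216 and 130 CPM, −0.72), Klrg1 (78.9 and 45.5 CPM, −0.78) and Klri2 (308 and 229 CPM, −0.43). Klre1, whose product forms receptors with those of Klri1 and Klri2, was at 277 and 270 CPM, and Klrb1f was higher, at 33.4 and 50.8 CPM. Of 13 adaptors and signalling genes, 9 were higher and 4 lower in Runx3, where 44.0% of all tested genes were lower. Tyrobp, which encodes DAP12, was at 1356 and 871 CPM (−0.64), Hcst, which encodes DAP10, at 294 and 172 CPM (−0.77), and Fcer1g, another adaptor of activating receptors, at 970 and 768 CPM (−0.34). Cd247, which encodes the zeta chain that serves the same purpose, was higher in Runx3, at 256 and 353 CPM (0.46).

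Of 12 genes for ligands of these receptors 8 had at least 10 UMIs, 5 below and 3 above 0. For this list and the maturation genes and regulators below, the share of all tested genes below 0 was 44.0%. H2-T23, for the ligand of NKG2A, was at 133 and 201 CPM (0.59), B2m at 2270 and 3321, and H2-D1 at 1312 and 1311. The higher H2-T23 level was not particular to NK cells. It was at 106 and 260 CPM in CD8 T cells, 129 and 273 in CD4 T cells and 130 and 178 in B cells. In Csf1r cells without Ncr1 or Cd3e it was at 248 and 342 CPM, and B2m was also higher in Runx3 in each of these classes. Of 10 NK maturation genes 4 were lower and 6 higher, with Klrg1 lower and Ly6c2 (121 and 368 CPM) higher. Ly6c2 was at 741 and 1948 CPM in Csf1r cells without Ncr1 or Cd3e and at 487 and 322 in B cells. The part of free RNA in its NK levels was not tested. Of 11 regulators 7 were lower and 4 higher, all by less than 1 log2 unit. Tbx21 was at 273 CPM in both libraries, Runx1 at 1876 and 1897, and Runx3 itself at 801 and 613 (−0.39).

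The share of NK cells with a UMI was compared after thinning each cell to 2000 UMIs, which left out 4 and 2 cells. Csf1r cells without Ncr1 or Cd3e and B cells served as the background. In Runx3_fl, 38.4% of NK cells held Klra4 (35.9 to 41.0%), 35.5% Klra7, 33.4% Klra8, 19.5% Klra9, 15.6% Klra3 and 6.25% Klra1, against 0.232 to 1.25% of Csf1r cells. In Runx3 the shares were 25.6% for Klra4 (18.2 to 34.2%), 28.0% for Klra7, 31.2% for Klra8, 22.4% for Klra9, 10.4% for Klra3 and 4.80% for Klra1, against 0.0772 to 0.309% of Csf1r cells. The intervals of the 2 libraries did not overlap for Klra4 and Klrd1, the latter at 49.6% (47.0 to 52.3%) and 31.2% (23.2 to 40.1%). For the other 8 genes they overlapped, and the share of Klra9 was higher in Runx3, against its CPM, so no order is read for it. How many of all genes had intervals apart was not counted, so nothing is read from the number of these genes that did.

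**Figure D3:**
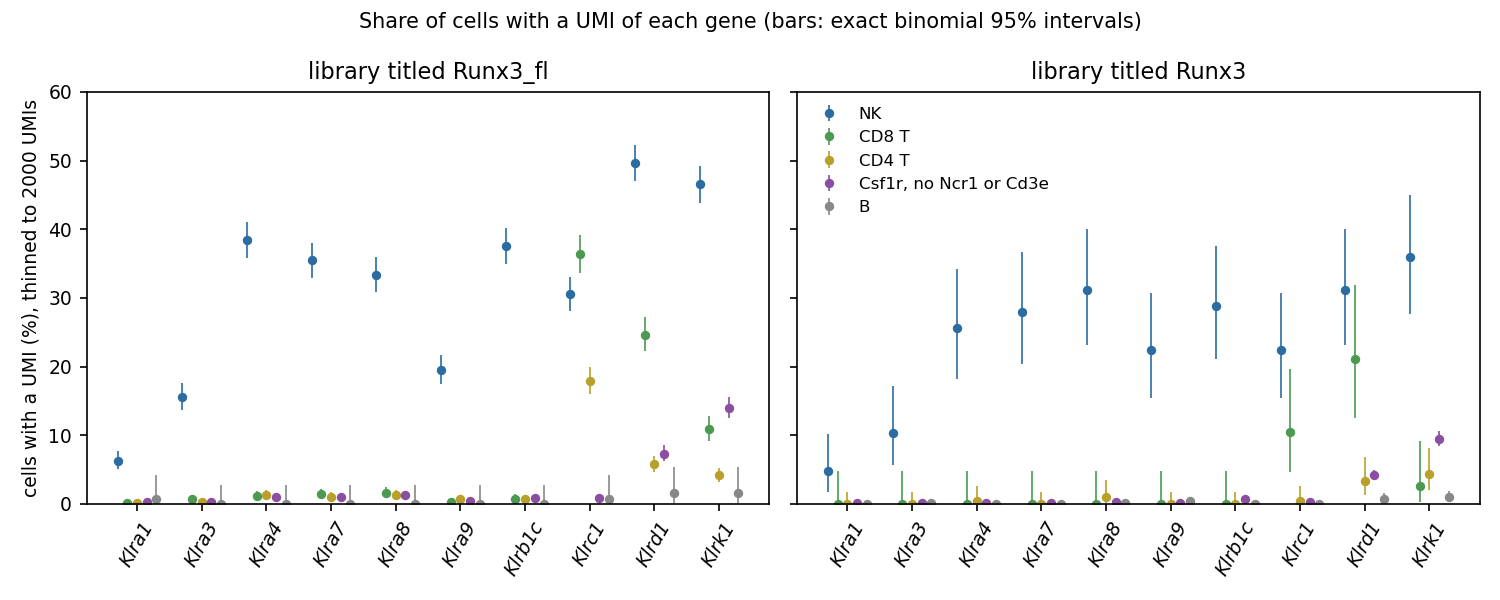
Percent of cells with a UMI of each gene after thinning to 2000 UMIs, by cell class and library, with exact binomial 95% intervals. NK cells stand above every other class for the Ly49 genes and Klrb1c, while Klrc1 in the library titled Runx3_fl is more frequent in CD8 T cells (36.4%) than in NK cells (30.5%).

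Unthinned, 668 of 1396 NK cells of Runx3_fl and 51 of 127 of Runx3 held Klra4, and 1207 and 99 held Klrd1. Klrb1c was seen in 37.6% of thinned NK cells in Runx3_fl and 28.8% in Runx3, Klrk1 in 46.6% and 36.0%, and Klrc1 in 30.5% and 22.4%. A gene is missed in many cells at 2000 UMIs and free RNA adds UMIs to others, so a share is not the share of cells that express it.

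The number of Ly49 genes per NK cell describes how the family is divided among cells. At 2000 UMIs a cell showed a mean of 1.49 of the 6 Ly49 genes (1.43 to 1.54, n = 1392 cells) in Runx3_fl and 1.22 (1.02 to 1.43, n = 125 cells) in Runx3. No Ly49 gene was seen in 21.1% of cells (19.0 to 23.4%) in Runx3_fl and 35.2% (26.9 to 44.2%) in Runx3, and 4 or more in 3.59% and 4.80%. If each gene were present independently at its own share, 16.8% and 24.4% of cells would show none. Cells without a Ly49 gene were more frequent than that product in both libraries. Cells with exactly 1, at 31.8% against 36.5% and 28.0% against 40.0%, were less frequent. A cell placed in the class by free Ncr1 RNA would count among those with none. A UMI of other lineages was seen in 346 of 1396 NK cells in Runx3_fl and in 119 of 127 in Runx3. The part of such cells in the number with none was not tested.

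**Figure D4:**
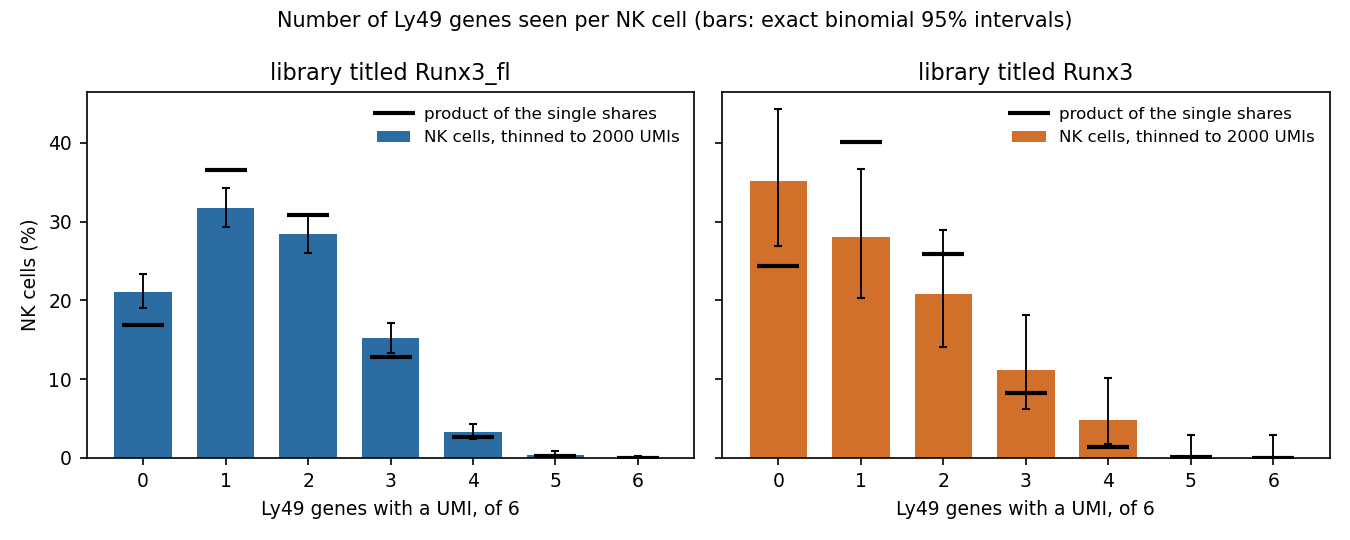
Percent of NK cells with 0 to 6 Ly49 genes seen at 2000 UMIs, for each library, with exact binomial 95% intervals; black dashes give the product of the single shares. Cells with 0 Ly49 genes lie above the dash and cells with 1 below it in both libraries.

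The genes were not spread over NK cells alike. In Runx3_fl, cells with both activating genes Klra4 and Klra8 numbered 234, where the product of the shares gives 179 (ratio 1.31, 1.15 to 1.49), and cells with Klra4 and Klra7 numbered 240 against 190 (ratio 1.26, 1.11 to 1.43). Of Klra4-positive cells 43.7% held Klra8 and 44.9% held Klra7. Over the 15 pairs of Ly49 genes the median ratio was 1.04, from 0.811 for Klra1 with Klra3 to 1.35 for Klra1 with Klra4, and only the 2 pairs named first had an interval off 1. In Runx3 the ratio for Klra4 with Klra8 was 1.30 on 13 cells (0.693 to 2.23) and for Klra4 with Klra7 1.34 on 12 cells (0.692 to 2.34), and no pair of any members had an interval off 1.

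Klrc1 went the other way. In Runx3_fl 107 NK cells held Klrc1 with Klra4, where the product gives 163 (ratio 0.655, 0.537 to 0.792), and the ratios for Klrc1 with Klra7 and with Klra8 were 0.782 (0.648 to 0.937) and 0.782 (0.643 to 0.942). With Klra9 the ratio was 1.02 and with Klra3 0.875, both with intervals that include 1. NK cells with a Klrc1 UMI showed 1.18 Ly49 genes (1.08 to 1.28) and those without 1.62 (1.55 to 1.69). In Runx3 these means were 0.964 (0.543 to 1.39) and 1.30 (1.06 to 1.54), with overlapping intervals. Klrc1 and its partner gene Klrd1 were found together in 205 cells where the product gives 211 (ratio 0.972), and Klrd1 was seen in 48.2% of cells with Klrc1 and 50.3% of cells without.

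**Figure D5:**
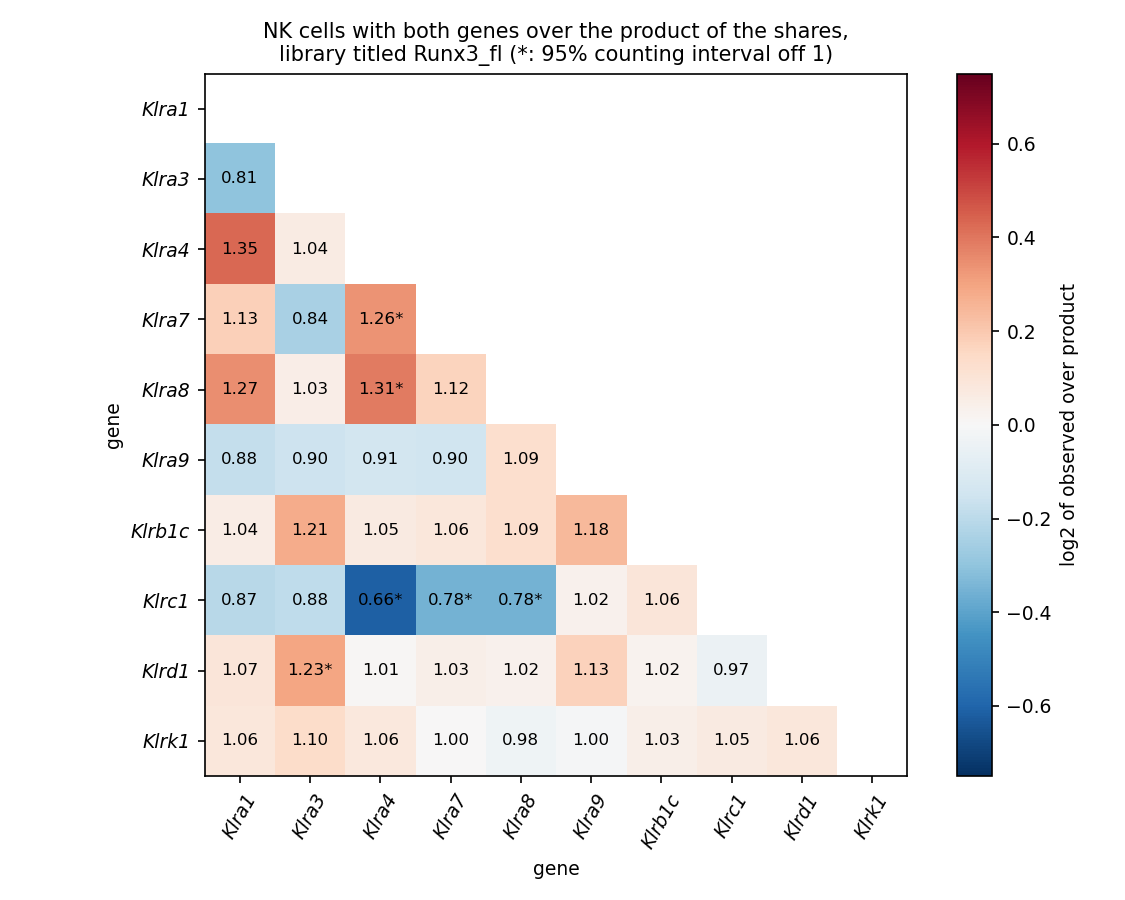
Number of NK cells with both genes of a pair divided by the product of the single shares, for the library titled Runx3_fl at 2000 UMIs; colour gives the log2 of the ratio and a star an interval of counting error off 1. The starred cells above 1 are Klra4 with Klra7, Klra4 with Klra8 and Klra3 with Klrd1, and those below 1 are Klrc1 with Klra4, Klra7 and Klra8.

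Near-identical copies could mix counts of these genes. Of the 90-base words in the last 500 bases of the coding transcripts, none of Klra1, Klra4, Klra8, Klrd1 or Klrk1 occurred in another Klr gene. Shares of 5.15% in Klra3, 6.57% in Klra7 and 12.4% in Klra9 occurred in Klra10 or in Ly49 pseudogenes and other Klr genes, and 21.9% in Klrc1 occurred in Klrc2. With a gene counted only from 5 UMIs in cells that were not thinned, Klra4 and Klra8 were together in 215 cells where the product gives 149 (ratio 1.45, 1.26 to 1.65), and Klra4 and Klrc1 in 61 where it gives 96.1 (ratio 0.635, 0.486 to 0.815). At that limit Klrc1 was with Klra9 in 48 cells against 32.4 (ratio 1.48, 1.09 to 1.96). Klrc1 with Klra8 stayed below 1 (0.746, 0.573 to 0.955), but the interval with Klra7 now included 1 (0.893, 0.690 to 1.14). Depth was not made equal between cells there, and other pairs rose as well. Klrc1 with Klrd1 was at 1.32 (1.08 to 1.59) and Klrd1 with Klrk1 at 1.40 (1.19 to 1.65).

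The number of Ly49 genes was also set beside transcription factors of NK cells at 2000 UMIs. In Runx3_fl, cells with an Eomes UMI showed 1.61 Ly49 genes (1.52 to 1.70) and those without 1.41 (1.33 to 1.48), and in Runx3 1.39 (1.04 to 1.74) and 1.11 (0.856 to 1.36). In Runx3, cells with Tbx21, the gene of T-bet, showed 1.68 (1.35 to 2.01) and those without 0.920 (0.674 to 1.17), and in Runx3_fl 1.54 (1.45 to 1.64) and 1.45 (1.38 to 1.53). Cells with Itgam showed 1.61 (1.50 to 1.73) in Runx3_fl and those without 1.45 (1.38 to 1.51), while in Runx3 the intervals overlapped.

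The second comparison was of CD8 T cells between the libraries, where the same genes had another pattern. Klrc1 was at 249 CPM (242 to 256) in Runx3_fl, the level it had in NK cells, and at 57.5 CPM (43.6 to 74.6) in Runx3, a log2 ratio of −2.09 (−2.52 to −1.74). Klrk1 was at 73.3 CPM (69.7 to 77.1) and 27.3 (18.0 to 39.7), a ratio of −1.40 (−2.03 to −0.88). Its share of thinned cells was 10.9% and 2.63% (0.320 to 9.18%), the latter overlapping the B cell background of 0.973% (0.421 to 1.91%), and its levels lay below those of Csf1r cells. With the CPM of Csf1r cells subtracted Klrk1 was at 0 in both libraries, and with no UMI of other lineages, on 5 cells in Runx3, its ratio was −6.33 and that of Klrc1 −0.69. Klrd1 was at 144 CPM (138 to 149) and 102 (83.1 to 124), a ratio of −0.49 (−0.79 to −0.21). Of the 10 genes 8 were lower in Runx3 by over 1 log2 unit, where 12.1% of 13752 tested genes were (15.5% were higher), but 6 of these 8, Klrb1c and the Ly49 genes other than Klra9, were at under 11 CPM in both libraries. The median of the 10 ratios was −1.81, or −1.33 with counts of 0 to 2 set to the floor of 3 UMIs.

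After thinning, 36.4% of CD8 T cells of Runx3_fl held Klrc1 (33.7 to 39.2%) and 24.7% held Klrd1 (22.3 to 27.2%), and in Runx3 10.5% (4.66 to 19.7%) and 21.1% (12.5 to 31.9%). In Csf1r cells Klrc1 was seen in 0.929% and 0.309%. Ly49 genes and Klrb1c were at 1.79 to 10.8 CPM in CD8 T cells of Runx3_fl and at 1.33 to 8.66 CPM in its Csf1r cells, and any Ly49 gene was seen in 4.21% of thinned CD8 T cells (3.15 to 5.50%) against 2.97% of Csf1r cells (2.30 to 3.78%), whose interval overlaps it. B cells of Runx3_fl were lower for some of these genes, with 0 UMIs of Klra3, Klra4, Klra7 and Klrb1c (up to 2.71 CPM), where CD8 T cells had from 4.80 (3.91 to 5.83) to 10.5 CPM. The UMIs were uneven, since 61.8% of those of Klra4 sat in the top 1% of CD8 T cells. Whether some CD8 T cells expressed Ly49 genes was not tested. In Runx3 the Ly49 genes and Klrb1c were seen in 0 of 76 thinned CD8 T cells, which allows a share of up to 3.95% of cells with a UMI at that depth by the floor of 3 counts (exact upper limit 4.74%). Unthinned, Klra9 was in 3 of the 76 cells and Klra3, Klra7 and Klra8 in 1 each, and Klra1, Klra4 and Klrb1c had no UMI. In Runx3_fl the ratio of Klrb1c to Ly49 UMIs was 0.154 (0.148 to 0.160) in NK cells and 0.178 (0.149 to 0.212) in CD8 T cells, whereas the ratio of Klrc1 to Ly49 UMIs was 0.168 and 6.20.

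The T cells of the 2 libraries differed in other genes as well. The 8 T cell markers, which include the Cd3e of the class rule, summed to 4144 and 2000 CPM in CD8 T cells, with 7 of 8 lower, and to 4254 and 1943 in CD4 T cells. In CD8 T cells the B cell markers summed to 9.79 and 75.7, the neutrophil markers to 46.9 and 191 and the myeloid markers to 342 and 719, and in CD4 T cells to 10.5 and 90.8, 70.4 and 264, and 310 and 845. Their part in the ratios of the Klr genes was not tested beyond the settings given. In CD8 T cells Gzma, for granzyme A, was at 3364 and 272 CPM, Prf1 at 78.9 and 4.04, Klrg1 at 80.1 and 2.02 and Klrc2 at 187 and 29.3, while Tcf7, a factor of naive and memory T cells, was at 19.0 and 279. In Runx3_fl Klrc2 was seen in 42.2% (37.5 to 46.9%) of thinned CD8 T cells with Klrc1 and 18.8% (16.1 to 21.7%) of those without, while Klrd1 was seen in 24.5% and 24.8%. A Csf1r UMI was seen in 119 of 1213 CD8 T cells (9.81%) in Runx3_fl and 22 of 76 (28.9%) in Runx3. Without these cells the ratio of Klrc1 was −1.72, that of Klrk1 −1.90 and that of Klrd1 −0.07 (−0.43 to 0.26).

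In CD4 T cells Klrc1 was at 132 CPM (128 to 137) in Runx3_fl and 6.82 (4.11 to 10.6) in Runx3, a log2 ratio of −4.09 (−5.01 to −3.63), the largest of any of the 10 genes in the 4 classes compared. It was seen in 17.9% of thinned CD4 T cells (16.0 to 19.9%) and in 0.483% (0.0122 to 2.66%), the latter within the background. Klrd1 was at 32.1 and 14.0 CPM (−1.14) and was seen in 5.77% and 3.38% of thinned cells. Klrk1 was at 27.8 and 40.2 CPM and was seen in 4.15% and 4.35%, against 1.54% (0.187 to 5.45%) and 0.973% of B cells, so no order is read from its share. Any Ly49 gene was seen in 3.57% and 1.45% of CD4 T cells, near the Csf1r cells.

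Klrk1 and Klrd1 were also seen in Csf1r cells, taken as a whole, above their shares in B cells. In Csf1r cells without Ncr1 or Cd3e, Klrk1 was at 97.0 CPM (93.4 to 101) in Runx3_fl and 60.1 (57.4 to 62.9) in Runx3, and Klrd1 at 64.6 (61.6 to 67.7) and 35.0. Klrk1 was seen in 14.0% and 9.50% of these cells after thinning, and in 1.54% and 0.973% of B cells. For each Ly49 UMI there were 0.248 Klrk1 UMIs in NK cells of Runx3_fl and 3.02 in its Csf1r cells, and in Runx3 0.284 and 9.12. B cells had 8 Klrk1 UMIs to 13 Ly49 UMIs in Runx3_fl and 56 to 21 in Runx3. The source of the Klrk1 UMIs in Csf1r cells was not tested. Among these cells, split after their values were seen, those with Xcr1, a marker of cross-presenting dendritic cells, had Klrd1 at 66.1 and 26.8 CPM and those without it at 64.4 and 35.4, and among the latter those with the macrophage gene C1qa were at 12.8 (10.2 to 15.7) and 14.3 (12.2 to 16.6). B cells had Klrd1 at 6.61 (3.02 to 12.5) and 13.3 CPM (10.6 to 16.5), which the intervals of the C1qa cells overlap. Klrk1 was at 120 (109 to 132) and 54.3 CPM with Xcr1, at 93.8 (89.9 to 97.8) and 60.3 without, and at 63.6 and 43.0 in the C1qa cells. The intervals with and without Xcr1 overlapped for Klrd1 in both libraries and for Klrk1 in Runx3, and in Runx3_fl Klrk1 was higher with Xcr1. Klra2, which encodes the myeloid receptor Ly49B and is no NK receptor of the group above, was at 162 and 199 CPM in Csf1r cells without Xcr1 and at 12.7 and 18.7 CPM in NK cells.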

How the data were processed

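The deposited files were filtered matrices of whole-number UMI counts per gene and cell, which the authors made from 10x Genomics 3′ libraries. Per the file headers Cell Ranger 7.1.0 was used, and the submitters' processing notes name the build mm10 and Seurat 4. The annotation version is not given in the sources used here. Counting by strand and the treatment of reads that map to several Klr genes follow that software and were not checked.

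Cells were kept by the study's limits (200 to 6000 genes, at most 15% mitochondrial UMIs). The upper limit was the only treatment of doublets. Classes were defined by UMIs of marker genes, not by clusters, so names may differ from the study's, and free RNA can place a cell in a class. UMIs were summed per class and library and divided by all UMIs of the class (CPM). Ratios between libraries are log2 with a pseudocount of 1 CPM, for genes with at least 10 UMIs in the class. Their intervals are exact conditional binomial ones without the pseudocount. Other intervals are exact Poisson (counts) and Clopper-Pearson (shares), at 95%, and a normal interval for mean Ly49 numbers. PCR duplicates are removed by UMIs, and since each group was 1 library, no interval holds the spread between animals. The intervals of CPM and of ratios take UMIs as independent and do not hold the spread between cells either. Cells were thinned to 2000 UMIs without replacement with 1 fixed seed. The product of shares is the number of cells expected if 2 genes were independent; cells of 1 library are not replicates, so it carries no p-value. The ratio step was tested on simulated data for NK cells between libraries (12913 genes run, 200 changed by 2 log2 units). It called 100% of the changed genes, and 96.3% of intervals held the true value. The counts were drawn from the Poisson model that the intervals assume, so the second share was set by the design. Gathering of UMIs in cells was not simulated, nor were smaller changes such as those between the NK cells.

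The 10 genes, the lists of other Klr genes, adaptors, ligands, NK maturation genes and regulators, and the markers were chosen with earlier results of these data known. The 10 genes are always named, and of each list at most 8 genes are named with values. Splits by sex genes, Xcr1 and C1qa, and 6 alternatives were chosen after seeing the data. Coordinates are from GENCODE M21 and promoter windows from RefSeq, both GRCm38. Klrd1 had no entry in the promoter table. Scripts ran in Python 3.11.15 with pandas 2.3.3, scipy 1.17.1, numpy 2.4.6 and matplotlib 3.10.9. No column of another series was in the files (0). Values of some listed genes are not reported here.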

Additional observations from a re-analysis of the deposited data

Results flagged for a closer look

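Klrk1 lay on opposite sides of 0 in different cell classes. Its log2 ratio of Runx3 over Runx3_fl was 0.52 (0.23 to 0.82) in CD4 T cells, against −0.23 in NK cells, −1.40 in CD8 T cells and −0.68 in Csf1r cells without Ncr1 or Cd3e. The difference between classes was not tested. In CD4 T cells Klrk1 was seen in 4.15% and 4.35% of thinned cells, and a Csf1r UMI in 173 of 1543 (11.2%) and 71 of 208 (34.1%). In CD4 T cells without a Csf1r UMI the ratio was 0.33 (−0.14 to 0.78).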

How the results depend on the processing

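Every alternative that gave a value kept the direction of the median ratio in NK cells (−0.87 to −0.18 over 15 settings) and in CD8 T cells (−2.82 to −0.84 over 11). Among the medians and counts, 100 values stayed close to the reported one, 18 moved and 4 changed side. With no UMI of other lineages only 8 NK cells were left in Runx3, the NK median was −0.50 and 3 genes were lower by over 1. With no other T cell genes (183 and 19 cells) the median was −0.87 and 3 genes were lower by over 1. In CD8 T cells a pseudocount of 10 CPM gave a median of −0.84 with 2 genes lower by over 1, and subtracting the CPM of Csf1r cells left 5. Single NK ratios that changed sign were those of Klra8 and Klra9 with up to 4000 genes (0.10 and 0.0100), with no other T cell genes (0.30 and 0.63) and with no Csf1r UMI (0.0062 and 0.083), of Klra9 and Klrb1c with no UMI of other lineages (0.49 and 0.37) and with NK cells by Eomes and Prf1 (0.084 and 0.11), and of Klra9 as a mean over cells (0.26). In CD8 T cells Klrd1 was at 0.93 with no UMI of other lineages, on 5 cells in Runx3. The cause of these sign changes was not tested, and settings that drop cells also left fewer of them. Ly49 genes per NK cell followed depth by construction: 0.989 and 0.730 at 1000 UMIs, 1.95 and 1.72 at 4000, and 2.27 and 2.13 unthinned. Runx3_fl had 1.57 with an Eomes UMI, 1.56 with no UMI of other lineages, 1.62 by Eomes and Prf1 and 1.13 from 5 UMIs, and Runx3 0.647 with no other T cell genes. The median ratio of Ly49 pairs in Runx3_fl went below 1 with no other T cell genes (0.802), with an Eomes UMI (0.965), with no UMI of other lineages (0.978) and in Y-linked cells (0.985), so no direction is read from it. Over 11 settings Klra4 with Klra8 stayed at 1.12 to 1.45, Klra4 with Klra7 at 1.12 to 1.33 and Klra4 with Klrc1 at 0.553 to 0.743. The alternatives by Csf1r, Y-linked genes, Eomes with Prf1, 5 UMIs, a second thinning and the cell rich in neutrophil RNA were chosen after seeing the data. No library could be left out. No paired analysis was possible because each group holds 1 library and no test was run.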
